A study of Caenorhabditis elegans with 24 samples.

Results

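The srh genes are a family of predicted serpentine (seven-transmembrane) chemoreceptor genes of the nematode Caenorhabditis elegans, described here in DNA adenine methyltransferase identification (DamID) data from body wall muscle of L3/L4 larvae. Members were all genes whose symbol is srh- followed by a number in the WBcel235 gene table of RefSeq, the assembly also called ce11, and each was given the 10 kb bin that holds its midpoint. This gave 292 genes, 220 protein-coding and 72 pseudogenes, in 181 of the 10030 nuclear bins. The rule uses gene symbols and no measured value, but the family was chosen with earlier results of these data known.

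Chemoreceptor genes encode G protein-coupled receptors that sit on the sensory cilia of head and tail neurons and bind odours, pheromones and other chemicals. The srh family belongs to the Str superfamily, together with families such as str, sri, srd and srj, and its genes lie mostly in tandem clusters on chromosome arms. Reporters of several members are expressed in amphid neurons such as ADL and ADF. Muscle is not a tissue in which these receptors are known to work. In C. elegans, silent genes on the arms of autosomes carry histone H3 lysine 9 methylation and lie near the nuclear lamina, the protein mesh under the inner nuclear membrane, to which the lamin LMN-1, emerin and the chromodomain protein CEC-4 contribute.

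In DamID, a bacterial adenine methyltransferase (Dam) fused to a protein methylates GATC sites that the protein comes close to, and reads from methylated fragments are counted. Dam was fused to emerin (Dam-EMR, from emr-1), which resides in the inner nuclear membrane, or was made as a freely diffusing nuclear GFP-Dam that reads accessibility. All worms were grown for 26 h at 22.5 °C. Both fusions stood behind the heat shock promoter hsp-16.41 without induction, for trace levels, and depended on a myo-3p::FLP driver that recombines the transgene. The fusions were profiled in 4 strains with 3 replicates, called rounds here because the strains of a replicate grew side by side, which makes 8 groups and 24 libraries. All strains carried a GFP-tagged lamin. GFP::LMN-1 was the wild-type form, and Y59C carried GFP::LMN-1 with the tyrosine to cysteine substitution that models Emery-Dreifuss muscular dystrophy. GFP::LMN-1 cec-4 and Y59C cec-4 had in addition the cec-4(ok3124) mutation, which removes the anchor of H3 lysine 9 methylated chromatin. No strain without a tagged lamin is among these samples, so each difference between strains also compares separately built worm lines.

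The deposited 10 kb values are raw read counts. Dam-EMR libraries held 34948 to 6163104 reads, with a median of 1726384, and GFP-Dam libraries held 2726614 to 19412316. The Dam-EMR library of Y59C round 3 was the shallowest, with a median of 1 read per bin over the genome and 0 over the srh bins. Means over 12 pairs include it unless stated otherwise. The sample labels give the tissue as body wall muscle and the FLP driver is a muscle promoter, whereas the design text of the series names the intestine. The bins of 25 body wall muscle genes had high free Dam levels: in GFP-Dam libraries their median was 264 to 428 CPM (reads of the bin scaled to the library total), 12.02 ± 3.46 times that of the median bin (SD, 12 libraries). The bins of 16 intestinal genes stood at 1.06 ± 0.15 times the median bin. Muscle is the tissue name used here.

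Most srh genes lay on chromosome V. That chromosome held 148 of the 181 bins and 242 of the 292 genes, chromosome II held 22 bins, IV held 6, I and X held 2 each, and III held 1. Arms, meaning the 33% of a chromosome's length nearest either end, held 147 srh bins (81.2%), with 87 on right arms and 60 on left arms. A single srh gene was present in 109 bins, 2 in 44, 3 in 18, 4 in 9 and 5 in 1. Another chemoreceptor family shared 64 of the bins, so a value of such a bin belongs to both families.

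The clearest property of the srh bins was a low level of free Dam methylation. In the GFP-Dam libraries of GFP::LMN-1 the median srh bin had 8.48, 16.5 and 11.7 CPM in rounds 1, 2 and 3, where the median bin of the genome had 28.1, 39.2 and 30.3 CPM. In GFP::LMN-1 cec-4 the srh medians were 7.98, 10.0 and 8.96 CPM, in Y59C 8.37, 12.01 and 6.81 CPM, and in Y59C cec-4 6.79, 13.8 and 5.71 CPM. The lowest genome median of the 12 libraries, 20.9 CPM, was above the highest srh median, so the ranges did not overlap. The median bin of the genome exceeded the median srh bin 3.20 ± 0.48 times (SD, 12 libraries; range 2.38 to 3.74), in 12 of 12 libraries.

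**Figure D1:**
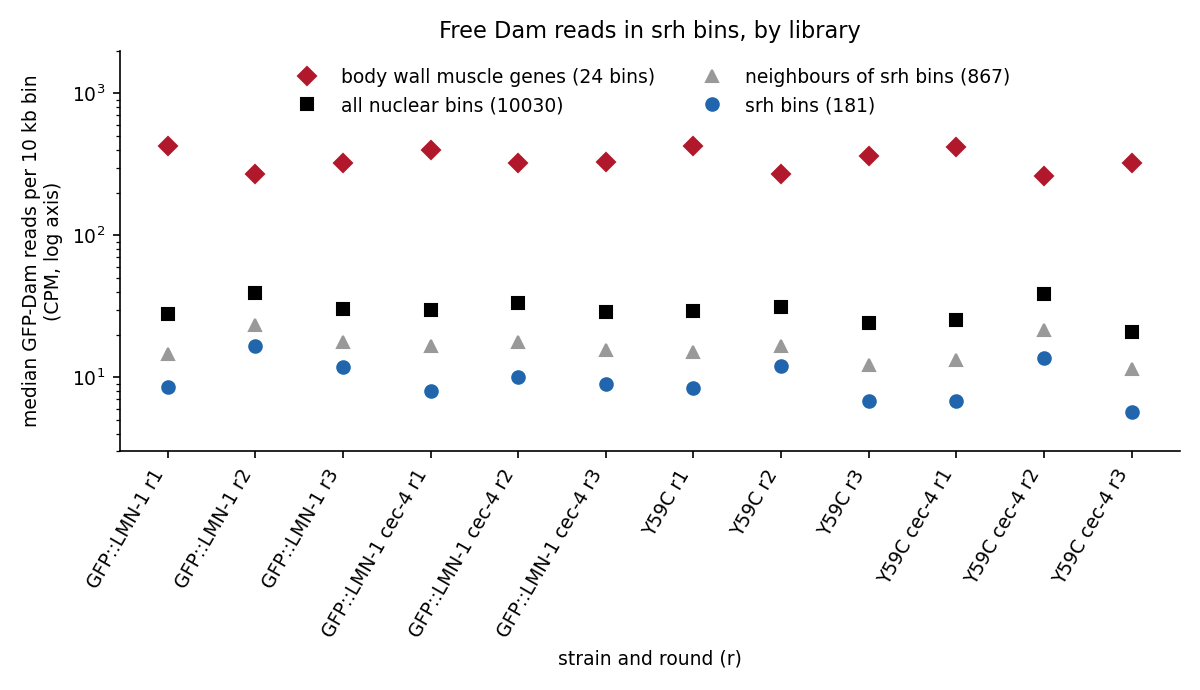
Median GFP-Dam reads per 10 kb bin, in CPM on a log axis, in each of the 12 GFP-Dam libraries (strain and round on the x axis), for 181 srh bins (circles), 867 neighbouring bins (triangles), all 10030 bins (squares) and 24 bins of body wall muscle genes (diamonds). The srh medians, 5.71 to 16.5 CPM, lie lowest in every library, and the muscle gene bins, 264 to 428 CPM, lie highest.

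Bins close to srh genes were also low, though less so. Neighbours were defined as the 867 bins without an srh midpoint that lie within 50 kb of an srh bin in the same arm or centre. Their median was 11.4 to 23.5 CPM, 1.73 ± 0.23 times the srh median, and it was above the srh median in all 12 libraries. Against all bins of autosomal arms the factor was 2.36 ± 0.40. Bins with at least 2 srh genes lay lower still, with the genome median 4.38 ± 0.63 times theirs. The number of GATC sites per bin, which limits how many reads a bin can give, was not used here, and its part in these levels was not tested. The other chemoreceptor bins had a similarly low level, 9.66 CPM for the median of 715 bins against 9.49 CPM for the srh bins, each bin taken at its median over libraries.

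Of the 181 srh bins, 159 (87.8%) were below the genome median and 22 were above it. The 5 highest, picked here after their values were seen, each hold other genes. Bins with a low level can hold other genes too. That of srh-98, with 1 srh gene among 6 protein-coding genes, had a median of 3.81 CPM. The bin of srh-269 had a median of 311 CPM (208 to 451 over 12 libraries) and also holds cpl-1, a cathepsin L protease gene. The bin of srh-47, srh-46 and srh-45 had 296 CPM and holds snf-11, a GABA transporter gene. The bin of srh-215 had 248 CPM and holds tni-3, a troponin I gene. The bin of srh-308 had 229 CPM and holds mtl-2, a metallothionein gene, and that of srh-189 had 152 CPM and holds the cytochrome P450 genes cyp-35A1 and cyp-35A2. None of the 5 was called for emerin association, with adjusted p-values of 0.24 to 0.99 (edgeR quasi-likelihood, Benjamini-Hochberg over 9735 bins).

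On the emerin side the srh bins were sparsely sampled. The share of srh bins with 0 Dam-EMR reads ran from 0.55% of 181 in GFP::LMN-1 cec-4 round 3 to 65.7% in Y59C round 3, with a mean of 25.8%. The mean was 18.9% for neighbours and 15.6% for all bins. Only 26 srh bins had reads in all 12 Dam-EMR libraries, and 30 had none in 6 or more of them. In the GFP-Dam libraries 175 of 181 had reads in all 12. Over the srh bins, log2 CPM of GFP-Dam libraries of different rounds of a strain correlated at a median Pearson r of 0.87 (12 comparisons), Dam-EMR libraries at 0.42 and the ratio of the 2 fusions at 0.02. Bins of 1 library share its depth and are not replicates, and these correlations are descriptions only.

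Emerin association was described by the log2 ratio of Dam-EMR over GFP-Dam within a strain and round, with 1 read added, each library scaled to its total and each pair centred on its median bin. A value of 0 is therefore the median bin of the genome. The median srh bin stood at 0.05, 0.47 and 0.03 in rounds 1, 2 and 3 of GFP::LMN-1, and at 0.66, −1.54 and 0.68 in GFP::LMN-1 cec-4. It stood at 0.46, −0.24 and 1.28 in Y59C, and at 1.12, −0.40 and 0.10 in Y59C cec-4. The highest value, 1.28 in Y59C round 3, is that of a median srh bin with 0 Dam-EMR reads, so it comes from the added read and the GFP-Dam count alone. The srh genes were thus above the genome median in 9 of 12 pairs and below it in 3, all 3 in round 2. The mean over pairs was 0.22 ± 0.75 (SD, n = 12), and the spread between pairs was larger than the mean. Without Y59C round 3 it was 0.13 ± 0.71, above 0 in 8 of 11 pairs.

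Neighbouring bins followed the same course. Their median was 0.16 ± 0.34 over the 12 pairs, above 0 in 7, and that of autosomal arms was 0.14 ± 0.17, above 0 in 10. The srh median minus the neighbour median was 0.07 ± 0.43, above 0 in 9 pairs. The smallest difference, −1.05, was in GFP::LMN-1 cec-4 round 2, where 43.6% of srh bins had no Dam-EMR read, and the largest, 0.58, in Y59C cec-4 round 1 and Y59C round 3. In the latter the median srh bin and the median neighbour both had 0 Dam-EMR reads (65.7% and 51.7% of bins were empty), so that value holds only the GFP-Dam counts and the added read. Without it the difference was 0.02 ± 0.42, above 0 in 8 of 11 pairs. Set against its own neighbours, the average srh bin differed by −0.00 ± 0.23, above 0 in 6 of 12 pairs. The share of all reads in srh bins, which needs no added read, was 0.61% ± 0.22 in Dam-EMR and 0.43% ± 0.08 in GFP-Dam libraries, a mean log2 ratio of 0.45 ± 0.49 that was above 0 in 10 of 12 pairs (0.48 ± 0.51 without Y59C round 3). Neighbours had 0.42 ± 0.44 on that scale, above 0 in 11, and srh minus neighbours was 0.03 ± 0.20.

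**Figure D2:**
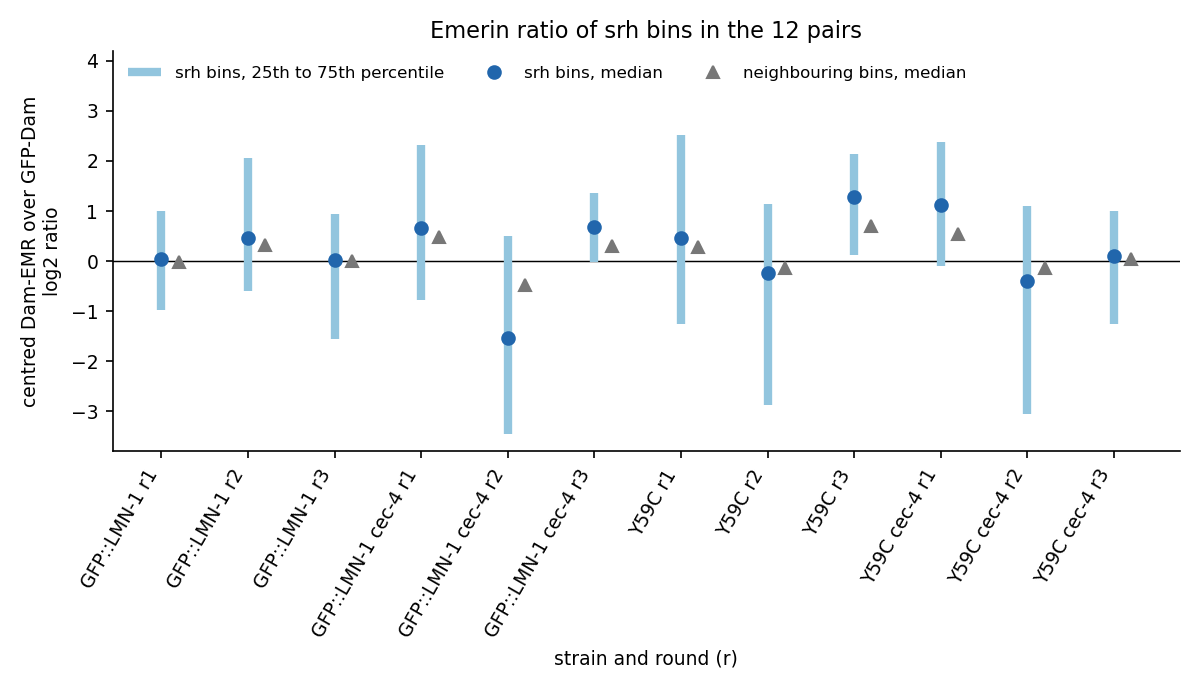
Centred log2 ratio of Dam-EMR over GFP-Dam (y axis) in the 12 pairs of libraries (x axis, strain and round), with the median of 181 srh bins as circles, their 25th to 75th percentile as bars and the median of 867 neighbouring bins as triangles. Circles and triangles move together from pair to pair (in Y59C round 3 both medians are bins with 0 Dam-EMR reads), and the 3 srh medians below 0 (−1.54, −0.40 and −0.24) all belong to round 2.

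The srh bins were lowest in round 2, with a spread that overlapped the other rounds. The srh median averaged 0.57 ± 0.45 over the 4 strains in round 1, −0.43 ± 0.83 in round 2 and 0.52 ± 0.58 in round 3. By strain it averaged 0.18 ± 0.25 over the 3 rounds of GFP::LMN-1, −0.07 ± 1.27 in GFP::LMN-1 cec-4, 0.50 ± 0.76 in Y59C and 0.27 ± 0.77 in Y59C cec-4. Without round 2 the srh median was 0.55 and its excess over neighbours 0.26, above 0 in all 8 remaining pairs. Without round 1 or round 3 the excess was −0.03 in each case. Without Y59C round 3 alone, the mean of Y59C was 0.11 ± 0.50 (n = 2) and that of round 3 was 0.27 ± 0.36 (n = 3).

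By place, the right arm of chromosome V, with 78 bins and 141 genes, averaged 0.31 ± 0.89 over the 12 pairs (8 above 0), against 0.21 ± 0.44 for that whole arm. The left arm of V, with 43 bins, averaged 0.39 ± 0.66 (8 above 0), against 0.25 ± 0.21. The 27 bins in the centre of V averaged 0.01 ± 0.47, against −0.10 ± 0.22. On the left arm of II the 13 srh bins averaged 0.18 ± 0.93, against 0.19 ± 0.42. In each of these zones the srh bins differed from their zone by less than the SD of that difference over pairs. Bins with 1 srh gene averaged 0.18 ± 0.65, those with 2 averaged 0.26 ± 0.89 and those with 3 or more 0.36 ± 1.18. Bins that hold only srh pseudogenes averaged 0.33 ± 0.75, and bins with a protein-coding member 0.21 ± 0.76.

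All 24 libraries were then fitted bin by bin with edgeR, and the Dam-EMR to GFP-Dam ratio averaged over the 4 strains was tested. Of the 181 srh bins 177 passed the count filter and were tested among 9735 bins. The bins of srh-85 with srh-84, of srh-278, of srh-138 and of srh-120 with srh-121 did not pass. At an adjusted p under 0.05, 5 srh bins (2.82%) were higher in Dam-EMR and 1 (0.565%) was lower, against a background of 1.29% higher and 1.8% lower over all tested bins. With the round as a block the counts were 2 higher and 1 lower, with backgrounds of 0.77% and 1.89%. The median log2 ratio of the 177 srh bins was 0.23, that of neighbours 0.14 and that of all bins −0.07. Without round 3 no srh bin and no bin of the genome was called, while 41 srh bins (23.2%) had an unadjusted p under 0.05, against 14.7% of all bins. With all rounds these were 50 srh bins (28.2%) and 20.2% of all bins.

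The bin of srh-141, on the right arm of V (16440001 to 16450000), was the most even of the called bins. It holds 3 protein-coding genes, srh-141 among them, so its values do not belong to that gene alone. Its Dam-EMR reads were 7, 43 and 71 in GFP::LMN-1, 55, 122 and 268 in GFP::LMN-1 cec-4, 16, 26 and 2 in Y59C and 8, 199 and 124 in Y59C cec-4, so no library was empty. The centred ratios were 0.62, 2.48 and 0.78 in GFP::LMN-1, 3.44, 2.69 and 1.98 in GFP::LMN-1 cec-4, 2.75, 1.24 and 2.54 in Y59C, and 2.46, 2.55 and 3.55 in Y59C cec-4. All 12 were above 0, and the fitted log2 ratio was 2.19 (SE 0.42, edgeR adjusted p = 0.00774). It was the only srh bin that stayed called in 9 of 10 alternative fits, and without round 3 its adjusted p was 0.15.

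The bin of srh-86, a pseudogene on the left arm of V (2970001 to 2980000), shares its reads with 4 genes of another chemoreceptor family, srw-129, srw-123, srw-124 and srw-118. Its ratios were 3.66, 4.72 and −0.29 in GFP::LMN-1, 4.91, 1.22 and 2.51 in GFP::LMN-1 cec-4, 1.74, 1.74 and 2.86 in Y59C, and 2.30, 1.98 and 0.39 in Y59C cec-4. Of the 12 pairs 11 were above 0, with a fitted log2 ratio of 2.25 (SE 0.59, edgeR adjusted p = 0.039). The bin had 323 Dam-EMR and 237 GFP-Dam reads in all, and 2 Dam-EMR libraries were empty, that of Y59C round 3 among them.

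The bin of srh-192 on the left arm of V (4310001 to 4320000) had ratios of 1.33, 3.07 and 3.13 in GFP::LMN-1, 2.55, 2.44 and 1.00 in GFP::LMN-1 cec-4, 3.62, 0.17 and 1.41 in Y59C, and 2.66, −0.53 and 0.71 in Y59C cec-4. The Y59C round 3 value of 1.41 comes from 0 Dam-EMR reads. This bin holds 2 protein-coding genes, srh-192 among them. All but 1 pair lay above 0, and the log2 ratio was 1.98 (SE 0.54, edgeR adjusted p = 0.044). The bin of srh-149, srh-152, srh-150 and srh-147, 2 of which are pseudogenes, on the right arm of V (15840001 to 15850000), ranged from −0.38 to 6.44 with 10 pairs above 0. Its log2 ratio was 2.46 (SE 0.65, edgeR adjusted p = 0.039). Its largest values were 6.44 in Y59C cec-4 round 1 and 4.54 in Y59C round 2, and the other 10 pairs lay at or below 2.41. The values of −0.38 in Y59C round 1 and 1.55 in Y59C round 3 come from 0 Dam-EMR reads. The bin of srh-137, also on the right arm of V (16710001 to 16720000) and shared with srz-98, ranged from −4.67 in GFP::LMN-1 round 3 to 4.35 in GFP::LMN-1 cec-4 round 2, with 10 pairs above 0. Its log2 ratio was 1.99 (SE 0.53, edgeR adjusted p = 0.041).

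The lower bin was that of srh-125 in the centre of V (7470001 to 7480000), which also holds str-28, str-29 and str-190. Its Dam-EMR reads were 1, 2 and 44 in GFP::LMN-1, 4, 1 and 59 in GFP::LMN-1 cec-4, 0, 3 and 0 in Y59C, and 1, 9 and 33 in Y59C cec-4, beside 87 to 223 GFP-Dam reads in every library. Ratios ran from −4.64 to 0.47 with 2 of 12 above 0, and the log2 ratio was −2.43 (SE 0.61, edgeR adjusted p = 0.033). Round 2 had the lowest ratio in each of the 4 strains.

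**Figure D3:**
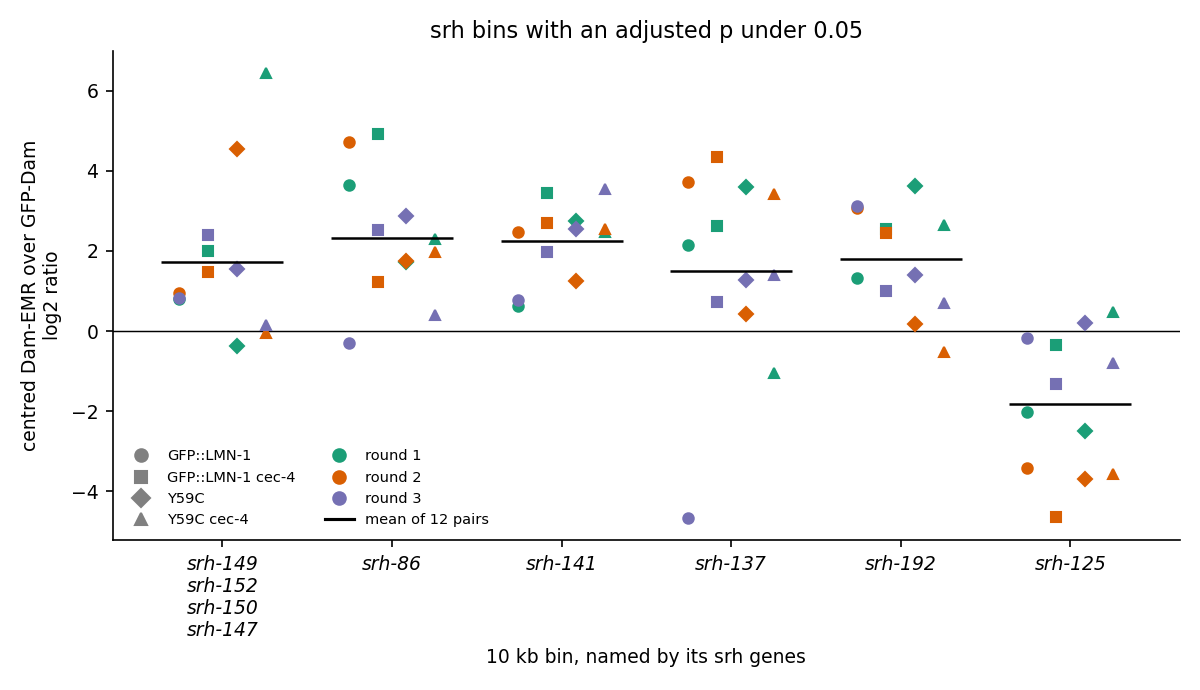
Centred log2 ratio of Dam-EMR over GFP-Dam (y axis) in the 12 pairs for the 6 srh bins with an edgeR adjusted p under 0.05 (x axis), where shape marks the strain, colour the round and the line the mean. The srh-141 bin lies above 0 in all 12 pairs, while each of the other 5 has 1 or 2 pairs on the other side of 0.

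The call of srh-125 held in 6 of 10 alternative fits, that of the srh-149 bin in 5, that of srh-137 in 4, and those of srh-86 and srh-192 in 3 each. Over these fits the log2 ratio ran from 0.20 to 2.65 for the srh-149 bin, lowest without round 2 (adjusted p = 0.98), and from 0.78 to 2.35 for srh-192, lowest without round 1 (adjusted p = 0.42), both from edgeR. It ran from −3.51 to −1.81 for srh-125, 1.5 to 2.33 for srh-137, 1.81 to 2.56 for srh-86 and 1.99 to 2.36 for srh-141. Leaving out Y59C round 3, or treating the round as a block, ended the calls of srh-86, srh-192 and srh-137, and leaving out Y59C round 3 ended that of the srh-149 bin as well. Among all 181 srh bins, tested or not, 18 (9.94%) had at least 10 of 12 pairs above 0 and 2 (1.10%) had at most 2, against 5.10% and 5.52% of all bins and 6.81% and 3.00% of neighbours. These counts include pairs whose sign rests on the added read. In Y59C round 3, 78.5% of srh bins and 67.7% of neighbours were above 0, while 65.7% and 51.7% had 0 Dam-EMR reads. The part of empty bins in these counts was not tested.

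Of the next bins by size, that of srh-277 with srh-280 had a fitted log2 ratio of 2.71 (edgeR adjusted p = 0.076, 8 of 12 pairs above 0). The bin of srh-228, srh-224 and srh-227 on the right arm of IV had 2.44 (adjusted p = 0.057, 9 pairs), that of srh-98 had 2.37 (adjusted p = 0.074, 7 pairs), and that of the pseudogene srh-175 had 2.34 (adjusted p = 0.052, 10 pairs), all from edgeR. None passed the threshold in this fit, and 5, 3, 2 and 3 of their 12 Dam-EMR libraries were empty, in that order. DESeq2, which called 5.31% of all bins higher, called each of them (adjusted p = 0.0042 to 0.013). The srh-228 bin was also called without round 2 (edgeR adjusted p = 0.046). For the srh-277 bin, the ratios of 2.94 in Y59C round 3 and 2.06 in Y59C cec-4 round 1 come from 0 Dam-EMR reads. At the low end, the bins of srh-39, srh-233, srh-36, srh-254 with srh-239, and srh-25 had 9, 10, 9, 8 and 6 empty Dam-EMR libraries of 12, and in each of them at least 1 strain had no Dam-EMR read at all, so no fold is given. Their mean centred ratios were −0.99, −0.54, −0.33, −0.01 and −0.87. The bin of srh-198, a pseudogene, had 4 empty libraries, 3 of them in Y59C, and a mean of −0.98 ± 2.00.

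Of the bins richest in srh genes, that of srh-270, srh-272, srh-240 and srh-241 had a mean centred ratio of 0.01 ± 1.84, and that of srh-221, srh-230, srh-229 and srh-267 had −0.10 ± 1.19. The bin of 5 genes, srh-66, srh-73, srh-69, srh-61 and srh-70 on the right arm of II, had −0.73 ± 1.88, and that of srh-23, srh-22, srh-20 and srh-21 had 1.13 ± 2.74. In these 4 bins the spread over pairs exceeded the mean. Those of srh-66 and srh-23 were empty in 5 and 6 of 12 Dam-EMR libraries.

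Several members have promoters that serve as sensory neuron reporters. The bin of srh-220, whose reporter marks the nociceptive and pheromone-sensing ADL neurons, had ratios of 0.19, 2.07 and 0.76 in GFP::LMN-1, −2.71, 2.30 and 1.46 in GFP::LMN-1 cec-4, −1.98, 2.55 and 1.35 in Y59C and 1.71, 1.53 and 0.28 in Y59C cec-4. Its log2 ratio was 1.24 (SE 0.47, edgeR adjusted p = 0.13), with 10 of 12 pairs above 0 and reads in every library. The srh-220 bin was called by DESeq2 (adjusted p = 0.047) and without round 1 (edgeR adjusted p = 0.033). The bin of srh-234, also an ADL gene, and srh-200 had 6 of 12 pairs above 0 and a mean of 0.30 ± 2.94. It was empty in 6 of 12 Dam-EMR libraries, and its Y59C round 3 ratio of 1.72 comes from 0 reads. The bin of srh-142, whose reporter marks ADF, a serotonergic sensory neuron, was empty in 7 of 12 Dam-EMR libraries and averaged −0.71 ± 2.65. Neither of these was called, and the 3 reporter genes differed from each other by less than the spread over pairs.

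Runs of srh bins with at most 2 bins between them were joined into 99 clusters, of which 12 had 5 or more genes and together held 137 genes in 69 bins. The cluster from srh-270 to srh-84, 16 genes over 130 kb of the left arm of V, had the highest mean. Its median bin stood at 1.11, 0.55 and 0.61 in GFP::LMN-1, 0.78, 0.00 and 1.01 in GFP::LMN-1 cec-4, 1.91, 0.28 and 2.86 in Y59C, and 2.06, 0.23 and −0.35 in Y59C cec-4. The mean was 0.92 ± 0.94, and that of its 11 neighbours −0.20 ± 1.30. The difference was 1.13 ± 0.95, above 0 in 10 of 12 pairs. This cluster holds the called bin of srh-86. In Y59C round 3, 8 of its 11 bins had 0 Dam-EMR reads, the median bin among them, so the 2.86 rests on the added read. Without that pair the mean was 0.75 ± 0.75 and the difference from neighbours 1.11 ± 1.00, above 0 in 9 of 11.

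The other large clusters lay closer to their surroundings. That from srh-8 to srh-211, 7 genes on the left arm of V, averaged 0.79 ± 0.97, 0.15 ± 0.98 above its neighbours. The largest by gene number, from srh-120 to srh-261 with 20 genes of which 12 are pseudogenes, averaged 0.51 ± 1.56, 0.03 ± 1.57 above its neighbours. The cluster from srh-126 to srh-267 in the centre of V, which holds the lower bin of srh-125, averaged −0.31 ± 1.14, and that from srh-68 to srh-70 on II averaged −0.24 ± 1.82. Of the 12 clusters 9 had a mean above 0 and 6 were above their neighbours, or 7 and 5 without Y59C round 3. In all but the srh-270 cluster the difference from neighbours was smaller than its SD over pairs.

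**Figure D4:**
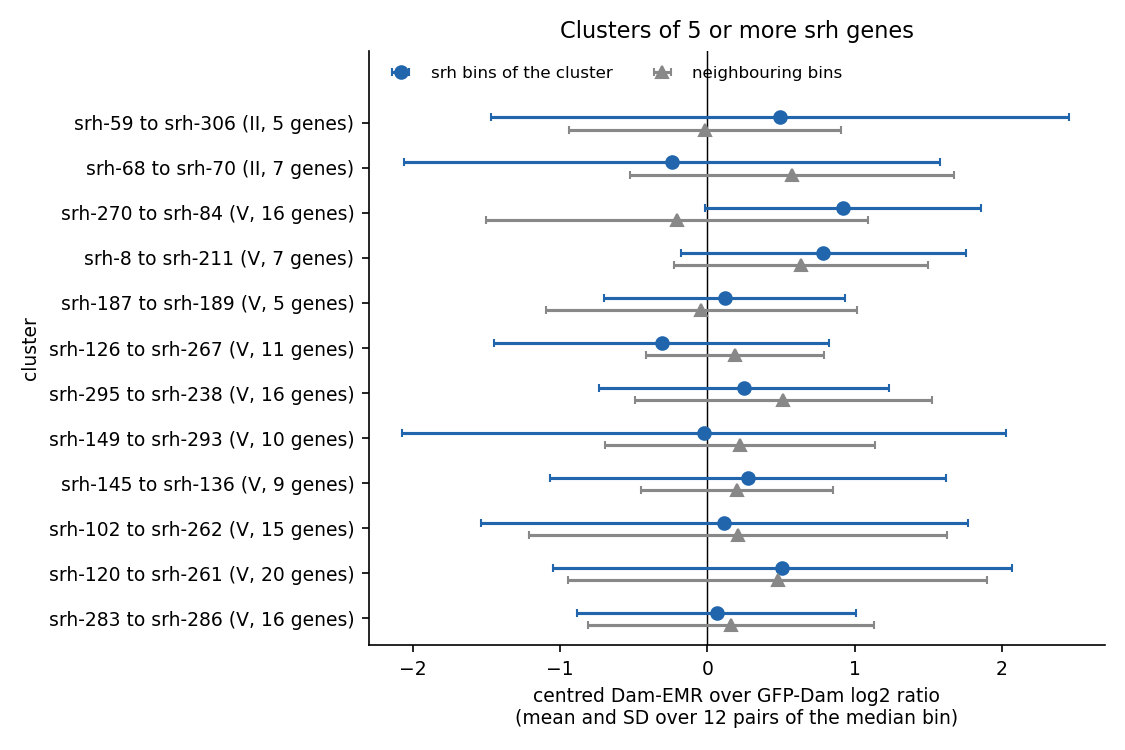
Centred log2 ratio of Dam-EMR over GFP-Dam (x axis; mean and SD over 12 pairs of the median bin) for the 12 clusters of 5 or more srh genes (y axis, named by first and last gene), with the srh bins as circles and their neighbours as triangles. The SD bars of circles and triangles overlap in every row, and the largest gap is in the srh-270 to srh-84 cluster, 0.92 against −0.20.

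Other chemoreceptor families gave values of the same size. The 12 pair medians of srh correlated most with those of str (Pearson r = 0.98), srz (0.94) and sre (0.93), over 12 pairs that share library depth and round, and srh shares 21 bins with str and 6 with srz. The str family, with 159 bins, averaged 0.25 ± 0.66, srz with 68 bins 0.38 ± 1.00, and sre with 41 bins 0.22 ± 0.63. Within the Str superfamily sri averaged 0.30 ± 0.65, srj 0.34 ± 0.80 and srd 0.17 ± 0.35. Among families of at least 11 bins the range was −0.24 ± 0.97 in srb, of whose bins 9.09% lie on arms, to 0.46 ± 0.52 in srt. Calls per family in edgeR were 3 of 150 for str, 3 of 63 for srz, 4 of 88 for srw and 4 of 50 for srt, against 6 of 177 for srh (3.39%) and 3.09% of all bins in either direction. Of 23 listed genes with roles in chemosensory neurons (such as odr-4, which serves receptor trafficking, and the channel genes tax-2, tax-4, osm-9 and ocr-2), none was called, and the median log2 ratio was 0.02.

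**Figure D5:**
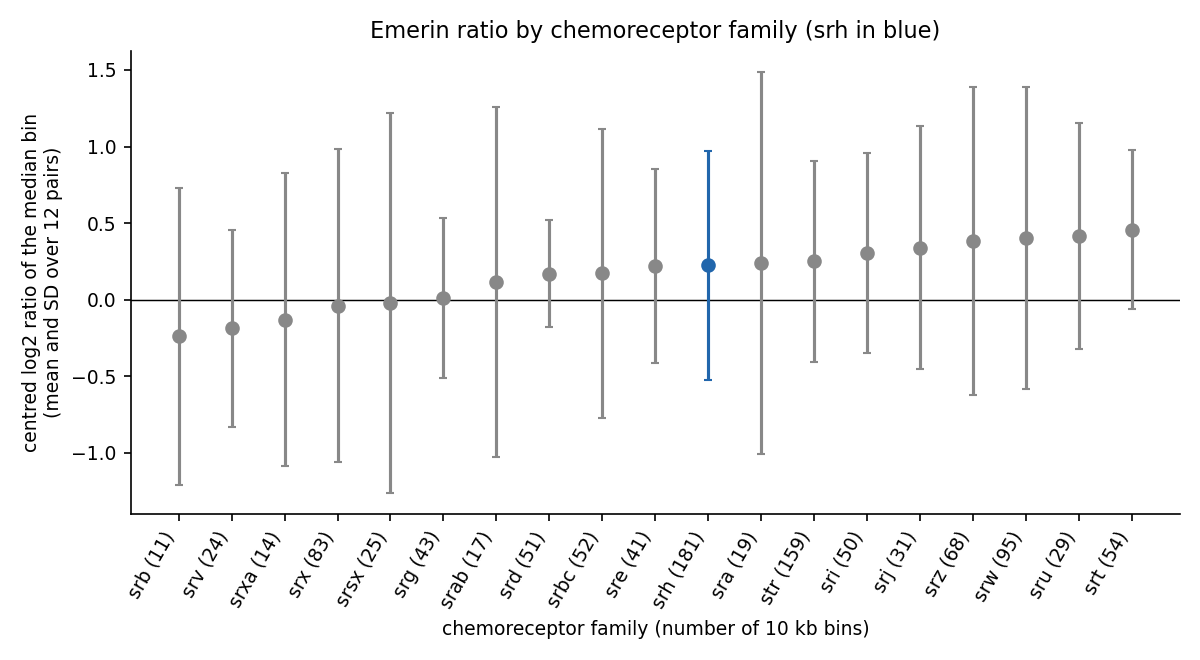
Centred log2 ratio of the median bin (y axis; mean and SD over 12 pairs) for each chemoreceptor family of at least 11 bins (x axis, number of bins in brackets), with srh in blue. The srh value, 0.22 ± 0.75, sits among the others, which run from −0.24 in srb to 0.46 in srt with overlapping SD bars.

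The authors' deposited table of log2 ratios in 100 kb bins, in which the 3 rounds are averaged before the logarithm, was read for the same genes. In the authors' deposited table the 19 bins with 5 or more srh genes had medians of 0.45 in GFP::LMN-1, 0.86 in GFP::LMN-1 cec-4, 0.83 in Y59C and 0.78 in Y59C cec-4. The medians of all 1005 nuclear bins in the authors' deposited table were 0.03, 0.00, −0.01 and 0.24. In the authors' deposited table the 98 bins with any srh gene had 0.26, 0.25, 0.37 and 0.41, and autosomal arm bins without one had 0.09, 0.06, 0.13 and 0.31. These averages carry no spread over rounds, and an arithmetic mean of ratios gives the round with the highest ratio the most weight.

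Differences between strains address whether the lamin substitution or loss of CEC-4 moves srh genes relative to emerin. No srh bin was called in any of the 5 edgeR comparisons, and the background over all 9735 bins was 0.0205% lower (2 bins) for Y59C minus GFP::LMN-1 and 0% for all else. Unadjusted p-values under 0.05 were found in 6 srh bins (3.39%) for GFP::LMN-1 cec-4 minus GFP::LMN-1, against 2.53% of all bins. They were found in 11 (6.21%) for Y59C cec-4 minus GFP::LMN-1, against 4.59%, and in 19 (10.7%) for the difference between the 2 cec-4 effects, against 8.95%. DESeq2 called 3 srh bins (1.69%) for Y59C minus GFP::LMN-1, against 1.2% of all bins, and 7 (3.95%) for Y59C cec-4 minus Y59C, against 3.37%. It called no srh bin in the other 3 comparisons, with backgrounds of 0%, 0.216% and 0.544%.

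For Y59C minus GFP::LMN-1, 27 srh bins (15.3%) had an unadjusted p under 0.05, against 10.8% of all bins, and 21 of them were lower in Y59C. For Y59C cec-4 minus Y59C there were 35 (19.8%), against 13.6% of all bins, and 28 of them were higher in Y59C cec-4. The log2 differences of all tested bins leaned the same way. For Y59C minus GFP::LMN-1 their median was −0.25 with 42.5% above 0, beside −0.49 and 37.3% for srh bins. For Y59C cec-4 minus Y59C it was 0.26 with 57.5% above 0, beside 0.50 and 60.5% for srh bins. Both comparisons use the same 6 Y59C libraries, in which 34.3% to 65.7% of srh bins had no Dam-EMR read, against 6.63% to 23.2% in GFP::LMN-1 and 11.05% to 37.6% in Y59C cec-4. The part of sparse reads in these counts was not tested. The srh median of Y59C minus that of GFP::LMN-1 was 0.42, −0.71 and 1.24 in rounds 1, 2 and 3, a mean of 0.32 ± 0.98. Y59C cec-4 minus Y59C was 0.66, −0.16 and −1.18, a mean of −0.23 ± 0.92. The round 3 values of both rest on the Y59C library whose median srh bin was empty, and without that round the means turned to −0.15 ± 0.80 and 0.25 ± 0.58 (n = 2). GFP::LMN-1 cec-4 minus GFP::LMN-1 was 0.61, −2.01 and 0.65, a mean of −0.25 ± 1.52. In each of the 3 differences the rounds differed in sign.

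The bin of srh-24 in the centre of V (13950001 to 13960000) had the smallest p among the strain comparisons. Its Dam-EMR reads were 71, 37 and 303 in GFP::LMN-1, 96, 473 and 481 in GFP::LMN-1 cec-4, 2, 2 and 2 in Y59C and 20, 686 and 345 in Y59C cec-4. The centred ratios were 0.03, 0.58 and 0.93, then 0.54, 2.34 and 0.30, then −2.70, −4.06 and −0.75, then 0.46, 2.28 and 0.99. All 3 Y59C values lay below all 9 others, in a bin picked for its small p. The fitted log2 difference was 4.82 for Y59C cec-4 minus Y59C (SE 1.22, edgeR adjusted p = 0.082), which missed the threshold. Without Y59C round 3 the adjusted p was 0.021 for that comparison and 0.032 for Y59C minus GFP::LMN-1, where the log2 difference was −5.06, and DESeq2 called the bin in both.

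The bin of srh-264 and srh-265 (V, 15410001 to 15420000) had 0, 3 and 0 Dam-EMR reads in Y59C against 6, 18 and 85 in GFP::LMN-1 and 4, 85 and 88 in Y59C cec-4. Its centred ratios were −3.30, −3.27 and −0.73 in Y59C, and 0.60, 0.54 and 0.79 in Y59C cec-4. The log2 difference was −4.77 for Y59C minus GFP::LMN-1 (SE 1.36, edgeR adjusted p = 0.18) and 5.22 for Y59C cec-4 minus Y59C (SE 1.37, edgeR adjusted p = 0.092). The bins of srh-105 on II and of srh-198 on V had 0 Dam-EMR reads in all 3 Y59C libraries, beside 377 and 400 GFP-Dam reads in all, against 85 and 69 Dam-EMR reads in GFP::LMN-1. The bin of srh-133, srh-134 and srh-307 stood the other way round, with ratios of 1.93, 1.84 and 1.73 in Y59C and −1.45, −2.42 and −3.70 in Y59C cec-4, a log2 difference of −4.90 (SE 1.47, edgeR adjusted p = 0.13). No edgeR adjusted p of these 4 bins was under the threshold. DESeq2 called the srh-264 bin for Y59C minus GFP::LMN-1 (adjusted p = 0.030) and for Y59C cec-4 minus Y59C (adjusted p = 0.0055). It also called the srh-133 bin as lower for Y59C cec-4 minus Y59C (DESeq2 adjusted p = 0.0054).

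For GFP::LMN-1 cec-4 minus GFP::LMN-1 the smallest p-values belonged to the bins of srh-88, of srh-258 with srh-257, and of srh-194, whose Dam-EMR reads in GFP::LMN-1 were 0, 0 and 1, then 0, 1 and 2, then 1, 1 and 1. In GFP::LMN-1 cec-4 they were 2, 0 and 44, then 22, 0 and 85, then 22, 1 and 63, and round 2 stayed at 0 or 1 in each. For Y59C cec-4 minus GFP::LMN-1 they belonged to the bin of srh-154, srh-158, srh-160 and srh-157 and to those of srh-165 and srh-129. The srh-165 bin had centred ratios of 1.74, 0.62 and 2.40 in GFP::LMN-1 and −0.28, −2.74 and −2.85 in Y59C cec-4. Its edgeR adjusted p was 0.88. Its Dam-EMR reads in Y59C cec-4 were 0, 4 and 5, so the −0.28 comes from 0 reads. For the difference between the cec-4 effects they belonged to srh-105, srh-166, and srh-210 with srh-211, with edgeR adjusted p-values of 0.27 to 0.31.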

How the data were processed

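Counts of mapped reads per 10 kb bin of ce11 were deposited by the authors as raw counts. The log2 ratios in 100 kb bins were also deposited by the authors, and recomputing them from the counts matched over 1004 bins. The aligner is not given in the sources used here. One log2 column header, which repeats a strain name, was read from that match. The 24 libraries form 8 groups of 3, and per the labels each used 200 ng of DNA cut with DpnI for 6 h. Gene positions come from RefSeq's WBcel235 table.

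Counts were fitted with edgeR 4.0.16 in R 4.3.3 (quasi-likelihood, TMM, filterByExpr, 8 group means), adjusted over all 9735 tested bins. On simulated counts the averaged comparison called 16.3% of bins changed 2-fold, 72% at 4-fold, 94% at 8-fold and 100% at 16-fold, beside 13 of 9445 unchanged bins. The simulated libraries were independent, with no round effect and the same fitted spread for both fusions, in bins picked over the whole genome. These shares therefore need not hold for the real libraries or for srh bins, which have fewer reads. Alternatives were DESeq2 1.42.0, limma 3.58.1 on pair ratios, other scalings, no filter, a round block and libraries left out. Round numbers pair the samples, since the design text says that strains were grown in parallel: GFP-Dam deviations correlated at a median r of 0.53 within rounds and −0.31 between them, and Dam-EMR deviations at 0.06 and −0.02.

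Reads were amplified by PCR and carry no molecular identifier, so read numbers overstate independent molecules. The members, lists and tests were chosen with earlier results of these data known. Named bins were all called ones, the 6 highest and 6 lowest fitted, the 5 with most srh genes (of 9 bins tied at 4 genes, the 4 with the lowest start coordinate), 3 reporter genes and the 3 with the smallest p per strain comparison. Neighbour, read share and GFP-Dam level variants, and strain, round and cluster values without Y59C round 3, were added after seeing the data. SEs were derived from the fold and F statistic.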

Additional observations from a re-analysis of the deposited data

How the results depend on the processing

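With 6 srh bins called for the averaged association in the main fit, DESeq2 called 28, of which 26 were higher and 2 lower. These were 14.7% and 1.13% of srh bins, against 5.31% and 3.88% of all bins. Limma on pair ratios called 1 (1 higher, 0 lower), 0.565% of srh bins against 0.0411% of all bins. The round as a replicate block gave 3 (2 higher), 1.69% against 2.66%. The fit without Y59C round 3 called 2, 1.12% against 3.22% (1 higher, against 0.683% of all bins). Library totals alone gave 4 (3 higher), 2.26% against 2.69% of all bins. RLE factors and no filter gave 6 each, 3.39% and 3.31%, against 2.64% and 3.49%. Leaving out round 1, 2 or 3 gave 6, 2 and 0 (0 to 5 higher and 0 to 1 lower). These were 3.37%, 1.12% and 0% of srh bins, against 4.1%, 0.459% and 0% of all bins. Of the 6 bins of the main fit, all were called by DESeq2, 4 with totals alone and 3 with the block. Of these 6, 1 was among the 6 called without round 1. For strain differences, with 0 called, DESeq2 called 3 for Y59C minus GFP::LMN-1 and 7 for Y59C cec-4 minus Y59C, beside 1.2% and 3.37% of all bins. The bins of srh-24 and of srh-264 with srh-265 were lower in Y59C (log2 differences of −3.92 and −4.19). That of srh-166 was higher (7.89), with 204, 0 and 0 Dam-EMR reads in Y59C, so its call rests on 1 library. Leaving out Y59C round 3 gave 1 each (srh-24), 0.559% of srh bins beside 0.459% and 0.612% of all bins. The replicate block changed no other count.

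The srh median moved from 0.22 to 0.13 with 0.5 reads added and to 0.51 with 5, and its excess over neighbours from 0.07 to 0.01 and 0.24. The GFP-Dam factor of 3.20 was 4.38 for bins with 2 or more srh genes, 1.73 against neighbours and 2.36 against arms. Signs turned for 5 uncalled bins. With 1 round left out at a time, srh-270 ran from −0.12 to 0.18, srh-23 from −0.52 to 0.37, srh-221 from −0.46 to 0.28, srh-234 from −2.98 to 1.35 and srh-277 from −0.19 to 3.40. The srh-23 bin also turned with totals alone (−0.021) and without Y59C round 3 (−0.09), and srh-221 with limma (−0.10). The cause was not tested. Few reads limit single bins on the Dam-EMR side, where a mean of 25.8% of srh bins was empty. The empty share was highest in the shallowest library (65.7% at 34948 reads) and lowest in the deepest (0.55% at 6163104). Between these it did not fall steadily with the library total. It was 6.63% at 546919 reads in GFP::LMN-1 round 2 and 43.6% at 3106935 in GFP::LMN-1 cec-4 round 2. The part of depth was not tested.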
